A study of Homo sapiens with 12 samples.

Results

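The kinesin family was examined in RNA sequencing data from HCT116, a human colorectal carcinoma cell line. Members were the protein-coding genes named KIF with a number, together with KIFC1, KIFC2 and KIFC3. The binding protein KIF1BP matches the letters but is no kinesin and was left out. Of 42 such genes in the GENCODE 29 annotation, 39 were listed among the 23195 genes of the Nutlin-3a comparisons, and 37 were listed in all 4 comparisons. KIF2B, KIF6 and KIF25 were not listed, and KIF1A and KIF7, with mean normalized counts of 2.69 and 1.73, were absent from the siRFX7 comparisons. By their known roles, 13 listed members were taken as mitotic, 15 as transport and 11 as acting in cilia, in microtubule control or elsewhere.

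Cells received either siControl, a control siRNA, or siRFX7, which targets the transcription factor gene RFX7. They were then kept for 24 h in 10 µM Nutlin-3a, which frees p53 from its inhibitor MDM2, or in the solvent DMSO. This gave 4 groups of 3 replicates: both siRNAs with DMSO and both with Nutlin-3a. All groups are the same line, all were transfected, and nothing in the labels says whether replicates were separate cultures, so p-values measure the spread between these samples, which may be technical.

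Kinesins are motors that use ATP to act on microtubules. Most walk toward the plus end and carry vesicles, organelles or protein complexes; a few walk toward the minus end, and some shorten microtubules in place of walking. A group of them is made mainly in dividing cells, where they build the spindle, move chromosomes and complete cytokinesis. Activated p53 is known to lower many genes of cell division through the inhibitor p21 and the DREAM complex, which binds a promoter element called the CHR (cell cycle genes homology region).

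The values are the authors' group statistics, and values per library were not used here. Mean normalized counts summed to 26801484 over the listed genes, and log2 standard errors had medians of 0.0869 to 0.0877 where the mean was 100 or more, against 0.458 to 0.708 below that. RFX7 itself, the siRNA target, had recovered group means of 944 normalized counts with siControl and 185 with siRFX7 in DMSO, and of 1332 and 302 in Nutlin-3a. Group means of 4 values are given from here on for siControl and then siRFX7, each first in DMSO and then in Nutlin-3a. The epithelial markers EPCAM, CDH1, KRT8, KRT18 and KRT19 were all listed, with mean normalized counts of 2585 to 80338. Of 4 markers of blood, endothelial and fibroblast cells, PTPRC, CD3E and PECAM1 were not listed, and COL1A1 had a mean of 441.

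The promoters of the mitotic kinesins had a feature in common that the choice of members did not use. RefSeq promoters (GRCh38.p14, 250 bases before to 50 after the annotated start) were at hand for 31 of the 39 members. The CHR letters TTTGAA, searched on both strands, occurred in 10 of 13 mitotic kinesins, in 1 of 11 transport kinesins and in 0 of 7 others. The same letters occurred in 15.2% of all 35116 promoters of this length. Counted per gene with a match in any of its promoters, as for the kinesins, they occurred in 18.2% of all genes with a promoter. Among the protein-coding genes averaging at least 100 normalized counts this share was 13.0%. In the mitotic kinesins the motif began at positions -55 to 30, counted from 0 at the start base. The 3 without it, KIF20A, KIF22 and KIF2C, each held one of the variant forms TTCGAA or TTTAAA, which were added to the search after the first result was seen and which 13.5% of all promoters hold. Over the classes, a variant form occurred in 5 of 13 mitotic kinesins, among them KIF14 and KIF23, which also hold TTTGAA. It occurred in 1 of 11 transport kinesins (KIF16B) and in 1 of 7 others (KIF24). Counted per gene, 16.0% of all genes with a promoter held one. Both variants read the same on either strand.

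The stretches of 30 bases around the motif are shown for 6 mitotic kinesins with TTTGAA, for the 3 with a variant form and for KIF5B, the transport kinesin with a match. Each is read on the strand on which the motif is spelt as searched, and capitals mark the motif.
KIF11, chr10:92593096-92593125, minus strand: aacgactcggcgcctcaaTTTGAAaaagag
KIF14, chr1:200620727-200620756, plus strand: ctccccagaaggccgcaaTTTGAAtgggcg
KIF18B, chr17:44947760-44947789, minus strand: tccggcccgcccggctaaTTTGAAcgcaag
KIF23, chr15:69414276-69414305, plus strand: cgggcgctgattggcccgTTTGAAatgcgc
KIF4A, chrX:70290052-70290081, plus strand: tggcgtctccgggacggaTTTGAAacttgg
KIFC1, chr6:33391821-33391850, minus strand: cgcgccacacccgccactTTTGAAttccaa
KIF20A, chr5:138179053-138179082, plus strand: aacgaacgcagcgcgtaaTTTAAAatattg
KIF22, chr16:29790706-29790735, plus strand: gggcggggcaccggggaaTTCGAAtgggag
KIF2C, chr1:44739816-44739845, plus strand: ggacgcttgcgcgcgggaTTTAAActgcgg
KIF5B, chr10:32056554-32056583, minus strand: aggggcagtgcagtaaaaTTTGAAtctgcg

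The match in KIF5B lay at position -140, outside the range of the mitotic kinesins. The CCAAT box, the letters bound by the factor NF-Y, occurred in 11 of 13 mitotic and 4 of 11 transport kinesins, against 34.6% of all promoters and 43.4% of the protein-coding genes averaging at least 100 normalized counts. In all 9 mitotic promoters that held both TTTGAA and CCAAT, the CCAAT box came first. From start to start the nearest pair lay a median of 25 bases apart, with a range of 9 to 122. Most of the searched stretch lies before these TTTGAA sites, which favours this order, and taking the nearest pair shortens the distance. Order and distance were not computed over all promoters. The E2F letters were spelt TTCCCGC in one form, TTCGCGC in another, TTGCCGC in the next and TTGGCGC in the last, and occurred in 4 of 13 mitotic and 4 of 11 transport kinesins, against 13.0% of all promoters and 26.1% of those genes. GTTGCC, letters of the X-box known for RFX factors, occurred in 3 of 13 mitotic kinesins (KIF14, KIF15 and KIF18A) and 4 of 11 transport kinesins, against 12.2% of all promoters and 16.9% of those genes. The letters used in these searches do not contain one another, but matches can share bases, as the E2F and GTTGCC matches of KIF3C do. Counted per gene, as for the kinesins, the shares over all genes with a promoter were 39.7% for CCAAT, 15.3% for the E2F letters and 14.6% for GTTGCC. A match describes the letters and says nothing of binding.

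**Figure D1:**
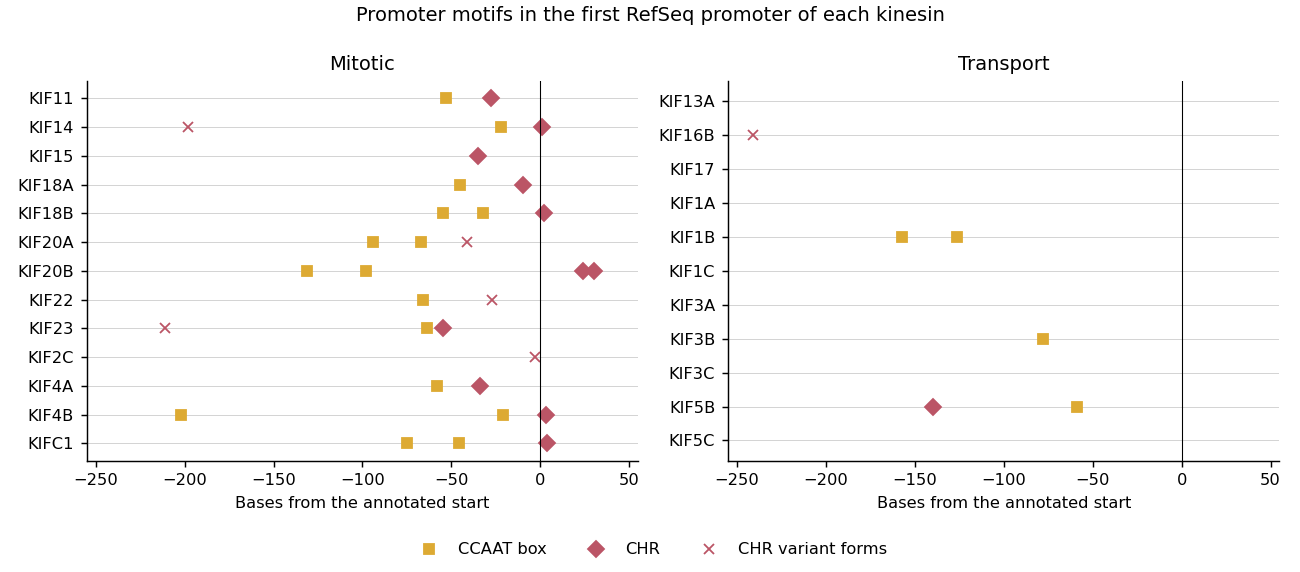
Positions of the CHR (TTTGAA, diamonds), its variant forms (crosses) and the CCAAT box (squares) in the first RefSeq promoter of 13 mitotic (left) and 11 transport (right) kinesins, in bases from the annotated start (vertical line). The diamonds of the mitotic kinesins lie between -55 and 30, and the single diamond of the transport kinesins, that of KIF5B, lies at -140.

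The first comparison asks how kinesin RNA responds to p53 activation. Under siControl, all 13 listed mitotic kinesins fell with Nutlin-3a at a DESeq2 adjusted p below 0.05 in the authors' deposited table, where 43.2% of all genes tested were called, 22.0% higher and 21.2% lower. Their log2 fold changes ran from -5.35 to -2.50 with a median of -4.09 in the authors' deposited table, against a median of 0.02 over all genes tested. What was left in Nutlin-3a ranged from 2.46% to 17.7% of the DMSO level, with standard errors of 0.076 to 0.167 on the log2 scale, computed from the authors' deposited table. In such bulk samples, fewer cells in division and less of these RNAs per cell cannot be told apart.

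The largest falls under siControl were those of the spindle motors KIF2C and KIFC1, while KIF18A, also of the spindle, fell the least of the mitotic members. KIF2C, which takes apart microtubule ends at kinetochores (ENSG00000142945, chromosome 1 from 44739818 to 44767767, plus strand), had recovered group means of 4171, 103, 2851 and 25.6 normalized counts. The Nutlin-3a groups were thus low under both siRNAs, and lowest with siRFX7. KIF2C was 40.7-fold lower in siControl (log2 fold change -5.35, standard error 0.11) in the authors' deposited table. KIFC1, a minus-end motor that gathers spindle poles (ENSG00000237649, chromosome 6 from 33391536 to 33409924, plus strand), had means of 3586, 92.1, 2381 and 22.9, a profile of the same shape. It was 38.9-fold lower in siControl in the authors' deposited table.

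KIF11 and KIF15, which push spindle poles apart, had log2 fold changes of -4.09 (standard error 0.09) and -5.15 (standard error 0.17) in siControl in the authors' deposited table. KIF11 had group means of 2861, 168, 2318 and 122 normalized counts, and KIF15 of 1129, 31.8, 873 and 20.5. KIF18A, which limits the swings of chromosomes on the spindle, kept the most of its RNA among the mitotic members under both siRNAs. Its means were 1849, 328, 1697 and 274, and 17.7% was left in siControl (16.8% to 18.7% at 1 standard error), computed from the authors' deposited table. KIF18B, its relative that shortens astral microtubules, fell much further, with means of 2138, 61.3, 1433 and 12.8 and 2.87% left in siControl (2.59% to 3.17% at 1 standard error), computed from the authors' deposited table.

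The chromokinesins bind chromosome arms. KIF22 had means of 5614, 616, 3872 and 474 normalized counts and fell by 3.19 on the log2 scale in siControl in the authors' deposited table. KIF4A, which also limits midzone length together with PRC1, had means of 2330, 109, 2041 and 72.0, and fell by 4.42 in the authors' deposited table. KIF4B, an intronless copy of KIF4A, had means of 696, 42.7, 587 and 21.2. The KIF4A and KIF4B transcripts are 95.26% identical over 4363 aligned positions, with identical runs of up to 151 bases (GENCODE 29), and how reads with several matches were handled is not given in the sources used here, so the split between the pair is uncertain.

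The motors of cytokinesis differed among themselves. KIF14, which works with citron kinase at the midbody, fell to means of 49.4 and 16.5 in Nutlin-3a from 1667 and 1432 in DMSO, under siControl and siRFX7 in turn. KIF23, the motor of the centralspindlin complex, had means of 3388, 299.6, 2908 and 169. KIF20B had means of 1954, 250.1, 1818 and 261, with 12.8% left in siControl and 14.3% in siRFX7, computed from the authors' deposited tables. KIF20A, which carries the chromosomal passenger complex to the midzone, is described with its neighbours further on.

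**Figure D2:**
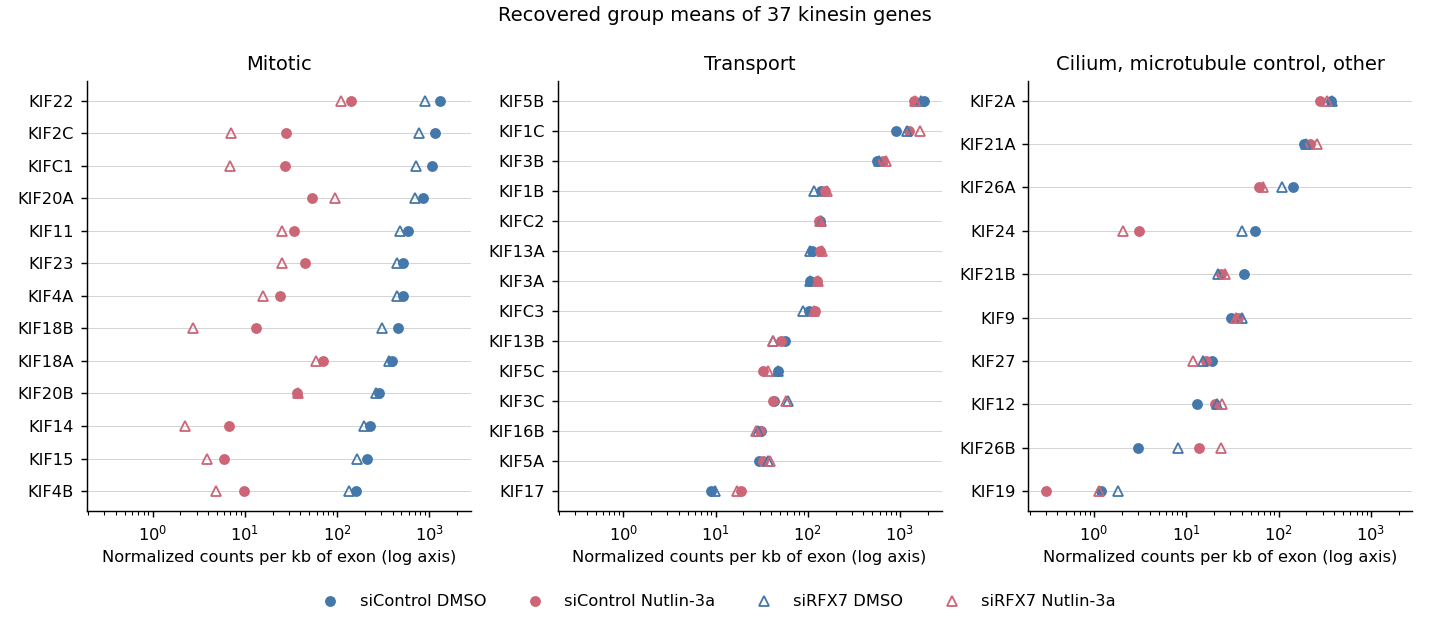
Recovered group means of the 37 kinesins listed in all comparisons, as normalized counts per kilobase of merged exon on a log axis, by role; filled circles are siControl, open triangles siRFX7, blue DMSO and red Nutlin-3a. The mitotic kinesins sit at 134 to 1302 in DMSO and at 2.27 to 143 in Nutlin-3a, while the 4 symbols of most transport kinesins lie close together.

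Per kilobase of merged exon, a scale on which genes can be set side by side, the mitotic kinesins were among the better expressed of the family in DMSO. Their median level was 514 normalized counts per kilobase in siControl DMSO, with KIF22 at 1302, KIF2C at 1144 and KIFC1 at 1072 at the top and KIF4B at 159 at the bottom. In siControl Nutlin-3a their median level was 28.1. The transport kinesins had a median level of 105 per kilobase in siControl DMSO and 122 in siControl Nutlin-3a. As a share of all normalized counts, the mitotic members made up 0.129% and 0.00863% under siControl and 0.104% and 0.00693% under siRFX7, without and with Nutlin-3a. Summed over the 14 transport members with group means, levels were 29697, 31488, 30681 and 35638 normalized counts in the usual order.

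Transport kinesins went in both directions with Nutlin-3a, mostly by small amounts. Under siControl, 6 of 15 rose and 2 fell at a DESeq2 adjusted p below 0.05 in the authors' deposited table. Over all genes 22.0% were called higher and 21.2% lower. Of the transport kinesins called, only KIF17 had a log2 change of at least 0.58 in size. The median log2 fold change of the 15 was 0.17 in the authors' deposited table, against 0.02 over all genes. KIF5B, the ubiquitous heavy chain of conventional kinesin and the transport member of highest level per kilobase in siControl DMSO (1826), fell. Its means were 10733, 8325, 9803 and 8589 normalized counts, and 77.6% was left in siControl (75.2% to 80.0% at 1 standard error), computed from the authors' deposited table. Its relative KIF5C fell by 0.55 on the log2 scale, while the third heavy chain, KIF5A, had a log2 fold change of 0.18 (adjusted p 0.262, DESeq2) in the authors' deposited table.

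KIF1C, a carrier of dense-core vesicles and the next in level per kilobase, rose. Its means were 7775, 10666, 10092 and 13974 normalized counts, so it was higher in Nutlin-3a under each siRNA and higher with siRFX7 in each treatment. The KIF1C log2 fold change with Nutlin-3a was 0.46 in siControl and 0.47 in siRFX7 (standard error 0.05 in each) in the authors' deposited tables. KIF3A and KIF3B, which pair in the motor of intraflagellar transport, rose by 0.24 each in siControl in the authors' deposited table. KIF13A, an endosome motor, rose by 0.29 and KIFC3, a minus-end motor at cell junctions, by 0.21 in the authors' deposited table. KIF17, a motor of dendrites and cilia, had the largest rise of the transport group in the authors' deposited table, 1.09 (standard error 0.24), from a low mean of 39.6 to one of 84.3 normalized counts.

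Under siRFX7, Nutlin-3a again lowered 13 of 13 mitotic kinesins at a DESeq2 adjusted p below 0.05 in the authors' deposited table, with 41.4% of all genes called, 21.7% higher and 19.7% lower. By the authors' deposited table their median log2 value was -4.79 and their range -6.81 to -2.63. KIF18B, KIF2C and KIFC1 kept 0.893%, 0.897% and 0.961% of their DMSO level, computed from the authors' deposited table. Among transport kinesins, 7 of 15 rose and 2 fell under siRFX7 in the authors' deposited table. KIF1B, a carrier of synaptic vesicle precursors and mitochondria, was the addition, with a log2 fold change of 0.46 against 0.17 (adjusted p 0.229, DESeq2) in siControl in the authors' deposited tables. That difference of 0.30 itself did not pass the test (z test adjusted p 0.322).

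**Figure D3:**
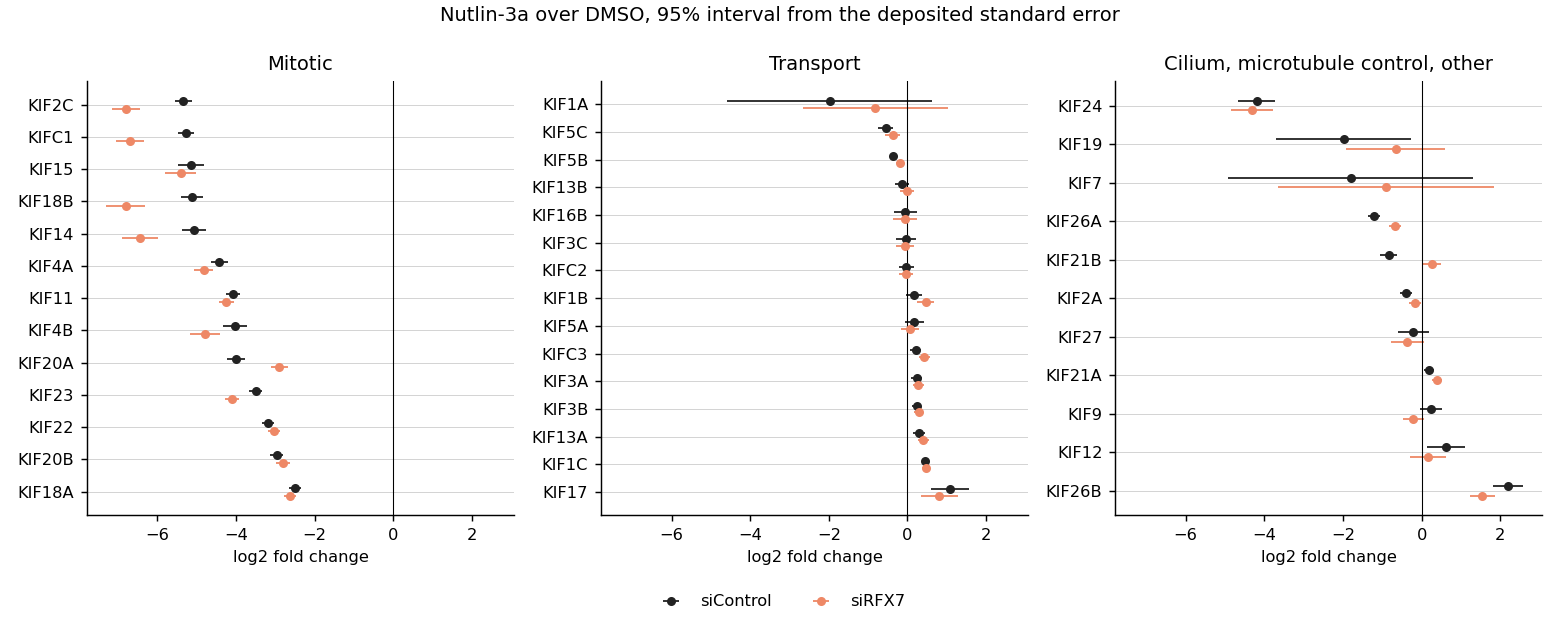
Log2 fold changes with Nutlin-3a over DMSO of the 39 listed kinesins by role, in siControl (black) and siRFX7 (orange), with 95% intervals from the deposited standard errors. All 13 mitotic kinesins lie between -6.81 and -2.50, KIF24 lies with them, and the transport kinesins lie around 0, with wide intervals for KIF1A.

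Of the remaining 11 kinesins, 3 rose and 4 fell under siControl and 2 rose and 2 fell under siRFX7 in the authors' deposited tables, where 22.0% of all genes were called higher and 21.2% lower, and 21.7% and 19.7%, in turn. KIF24, a centriole protein that holds back cilia, had means of 341, 18.6, 246 and 12.5 normalized counts and had log2 values of -4.20 and -4.31 with Nutlin-3a under siControl and siRFX7 per the authors' deposited tables, within the range of the mitotic members. Its promoter held TTCGAA at position 1 and 3 CCAAT boxes. KIF26B, a kinesin without the usual motor activity, had the largest rise of the family, 4.59-fold in siControl and 2.91-fold in siRFX7, computed from the authors' deposited tables. Its means were 43.4, 199, 116 and 339 normalized counts, lowest in siControl DMSO and highest in siRFX7 Nutlin-3a. Its relative KIF26A went the other way, with means of 974, 419, 734 and 460, and log2 fold changes of -1.22 under siControl and -0.67 under siRFX7 by the authors' deposited tables, both called. KIF12 rose by 0.63 and KIF21A by 0.19 with Nutlin-3a under siControl. KIF2A, a depolymerase, was at -0.39 and KIF21B at -0.84 there, and all of these were called in the authors' deposited table. KIF2A shares exon bases with IPO11 on the same strand, as described further on. KIF9 and KIF27, genes of cilia, did not pass under either siRNA. KIF19, with at most 10.1 normalized counts in any group, and KIF7 and KIF1A are too low for a fold to be read.

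The siRFX7 comparisons ask what the knockdown does without and with p53 activation. In DMSO, 10 of 13 mitotic kinesins were lower and none higher at a DESeq2 adjusted p below 0.05 in the authors' deposited table, with 29.0% of all genes called, 13.5% higher and 15.5% lower. The falls were small, with a log2 median of -0.29 and a lowest value of -0.59, that of KIFC1, in the authors' deposited table, against a median of -0.003 over all genes. KIF14, KIF18A and KIF20B did not pass, at -0.22, -0.12 and -0.10 in the authors' deposited table. With the groups scaled to equal total counts, 6 of the 13 were called lower, since KIF20A, KIF23, KIF4A and KIF4B no longer passed. Among 14 transport kinesins, 3 rose (KIF1C, KIF3C and KIF5A) and 3 fell (KIF13B, KIF5B and KIFC3) in the authors' deposited table.

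In Nutlin-3a, siRFX7 lowered 11 of 13 mitotic kinesins and raised KIF20A, in the authors' deposited table, with 28.6% of all genes called, 15.0% higher and 13.6% lower. The log2 median was -0.63 by the authors' deposited table, against 0.002 over all genes. By the authors' deposited table KIF18B fell by 2.26 (standard error 0.27), KIFC1 by 2.01 (0.20) and KIF14 by 1.58 (0.26), and KIF2C was left at 24.9% (21.7% to 28.6% at 1 standard error). These 4 had only 12.8 to 25.6 normalized counts left in siRFX7 Nutlin-3a. KIF20B was not called, at 0.06 in the authors' deposited table. Of 14 transport kinesins, KIF1C rose by 0.39, KIF3C rose by 0.48 and KIF13B fell by 0.29 in the authors' deposited table, and the other 11 did not pass. KIF16B, an endosome motor, and KIFC2 passed in none of the 4 comparisons. Among the 10 remaining kinesins, siRFX7 raised KIF26B by 1.42, KIF12 by 0.71 and KIF9 by 0.39 without Nutlin-3a, and KIF21B was at -0.94, KIF24 at -0.47 and KIF26A at -0.41, all called in the authors' deposited table. With Nutlin-3a, KIF26B rose by 0.77, KIF21A by 0.26 and KIF2A by 0.25, and none of the 10 fell, by the authors' deposited table.

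**Figure D4:**
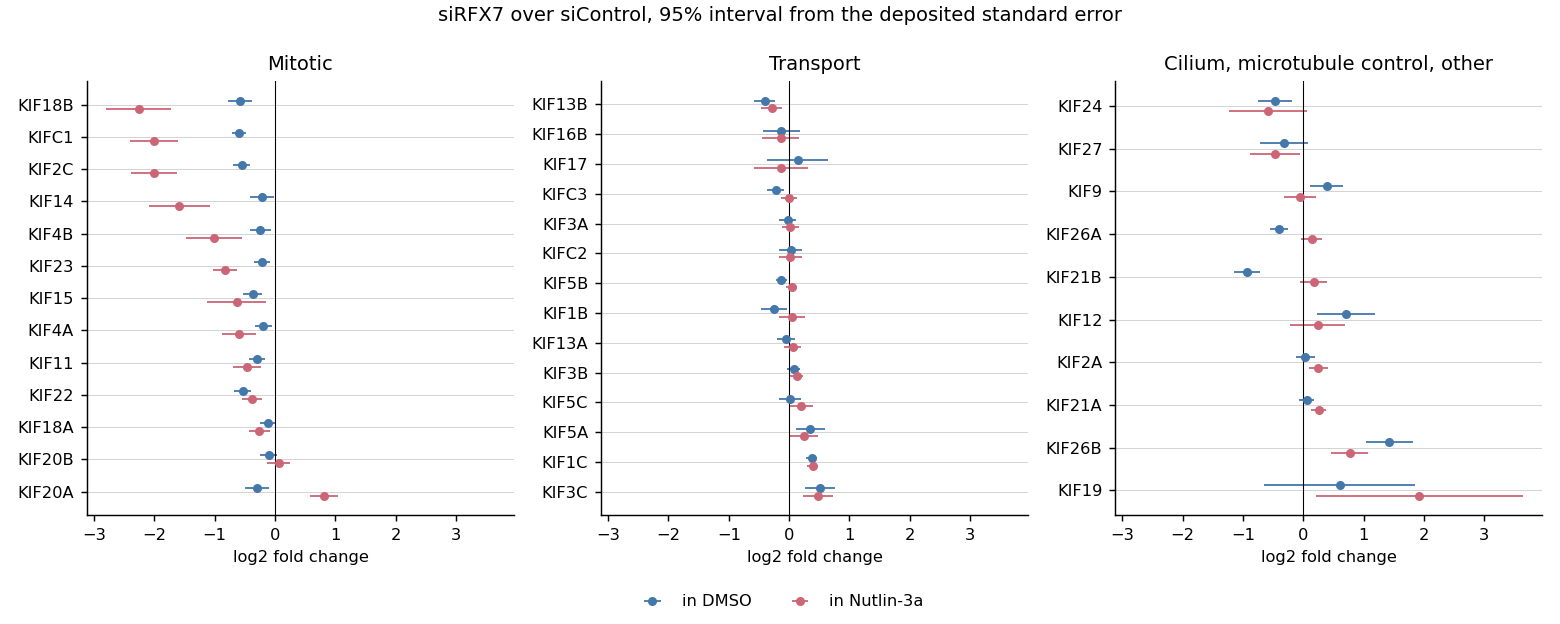
Log2 fold changes with siRFX7 over siControl of the 37 kinesins listed in both comparisons, by role, in DMSO (blue) and Nutlin-3a (red), with 95% intervals from the deposited standard errors. KIF18B, KIFC1, KIF2C and KIF14 lie between -2.26 and -1.58 in Nutlin-3a and between -0.59 and -0.22 in DMSO, and KIF20A lies at 0.81 in Nutlin-3a.

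The 4 comparisons share libraries in pairs, so their values for a gene are not independent. The difference between the Nutlin-3a fold changes, siRFX7 minus siControl, was tested directly with a z test on the deposited standard errors. It passed for 7 of 13 mitotic kinesins, 6 below 0 and 1 above, where 6.20% of all 23195 genes were called, 2.92% below 0 and 3.28% above. The difference was -1.68 for KIF18B (standard error 0.29, adjusted p 7.53e-07), -1.45 for KIF2C (0.21, 8.04e-10), -1.42 for KIFC1 (0.21, 2.95e-09) and -1.36 for KIF14 (0.28, 5.81e-05) by the z test. KIF4B followed at -0.76 (adjusted p 0.0416, z test) and KIF23 at -0.61 (adjusted p 6.07e-05, z test). With a t distribution of 8 degrees of freedom in place of the normal, 4 of the 7 remained, namely KIF18B, KIF20A, KIF2C and KIFC1.

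For the other mitotic kinesins the difference did not pass, and its 95% interval ran from -0.43 to 0.10 for KIF11, -0.35 to 0.08 for KIF18A, -0.06 to 0.37 for KIF22, -0.08 to 0.40 for KIF20B, -0.77 to 0.25 for KIF15 and -0.72 to -0.08 for KIF4A. None of these 6 intervals, which are not adjusted for the number of genes, reaches the -1.45 of KIF2C. Those of KIF15 and KIF4A do include the -0.61 of KIF23, which was called, so these genes are not set apart from it. That of KIF4A leaves out 0, with an adjusted p of 0.145 (z test). TTTGAA was in the promoters of 5 of the 6 genes with a difference below 0 and of 5 of the 6 without a called difference. Among transport kinesins 0 of 15 passed this z test, against 6.20% of all genes, a share at which few of 15 would pass. KIF5B and KIFC3 were below an unadjusted p of 0.05 (z test). KIF5B, at 0.18, passed when only genes with a mean of at least 100 were tested. In the third group the difference passed for KIF21B at 1.10 (adjusted p 1.09e-09, z test) and KIF26A at 0.54 (adjusted p 0.000117, z test). With the t distribution KIF21B passed and KIF26A did not (adjusted p 0.0855). KIF21B, which restrains microtubule growth, had means of 513, 286, 268 and 322 normalized counts, so siControl DMSO alone was high.

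KIF20A (ENSG00000112984, chromosome 5 from 138178719 to 138187715, plus strand) was the 1 mitotic kinesin whose difference was called above 0. Its means were 3415, 213, 2789 and 374 normalized counts. Nutlin-3a left 6.25% of its DMSO level under siControl and 13.4% under siRFX7, computed from the authors' deposited tables. The difference of 1.10 on the log2 scale had a 95% interval of 0.79 to 1.41 (z test adjusted p 4.46e-10). The knockdown changed it by -0.29 without Nutlin-3a and by 0.81 with it (95% interval 0.57 to 1.05), by the authors' deposited tables.

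Both neighbours of KIF20A lie on the other strand and share exon bases with it. BRD8 shares 132 bases, or 3.34% of the merged exons of KIF20A, and CDC23 shares 68 bases, or 1.72% (GENCODE 29). CDC23, a subunit of the anaphase-promoting complex, had means of 1902, 1359, 2029 and 1662 normalized counts, and rose with siRFX7 in Nutlin-3a by 0.29 (log2) per the authors' deposited table. BRD8, a chromatin protein, had means of 1486, 1003, 1191 and 845 and fell there by 0.25 in the authors' deposited table. The Nutlin-3a differences between siRNAs were 0.20 for CDC23 (adjusted p 0.364, z test) and 0.07 for BRD8 (adjusted p 0.817, z test). In Nutlin-3a both neighbours were thus far above KIF20A in counts, and whether reads were counted by strand is not given in the sources used here. The part of these neighbours in the KIF20A counts was not tested. Other members also lay below a neighbour on the other strand in siControl Nutlin-3a. KIF18A had a mean of 328 normalized counts there against 1237 for METTL15, which shares 61 exon bases with it. KIF4A had 109 against 668 for PDZD11 (77 shared bases), and KIF24 had 18.6 against 1931 for UBAP1 (143 shared bases). The part of METTL15, PDZD11 and UBAP1 in these counts was not tested either.

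**Figure D5:**
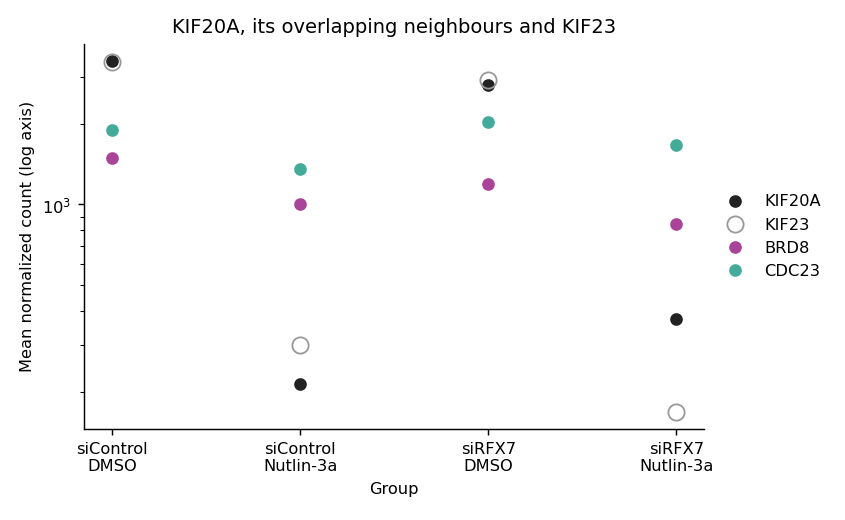
Recovered group means, in normalized counts on a log axis, of KIF20A (black), of CDC23 and BRD8, which overlap it on the other strand, and of KIF23 (open circles) in the 4 groups. KIF20A is at 213 in siControl Nutlin-3a and 374 in siRFX7 Nutlin-3a, while KIF23 is at 299.6 and 169.

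In all, 14 of the 39 members shared exon bases with another listed gene, 13 of them with a gene on the opposite strand, and for 5 the shared part was at least 10% of their exons. KIF22 shared 13.0% with the antisense gene AC009133.4, which had a mean of 4.78 normalized counts against 2644 for KIF22. KIFC1 shared 12.7% with RPL12P1, with a mean of 21.1 against 1521. KIF7 shared 11.8% with TICRR, a replication gene whose own mean was 596 against 1.73 for KIF7. KIFC2 shared 17.8% with FOXH1, with a mean of 2.98 against 607. KIF9 shared 14.9% with KIF9-AS1, with a mean of 107 against 208, and 3.04% with KLHL18, with a mean of 1870. With siRFX7, KIF9-AS1 was called lower, at -0.76 in DMSO and -0.60 in Nutlin-3a, by the authors' deposited tables. KIF9 was called higher by 0.39 in DMSO and was not called in Nutlin-3a. The part of KIF9-AS1 and KLHL18 in the KIF9 counts was not tested. KIF2A alone shared exon bases with a listed gene on its own strand. This gene, IPO11, shared 428 bases, or 8.97% of the KIF2A exons, and strand cannot tell reads from these bases apart. IPO11 had a mean of 1592 against 1633 for KIF2A. With Nutlin-3a, IPO11 was called lower, at -0.60 under siControl and -0.49 under siRFX7, by the authors' deposited tables. The part of IPO11 in the KIF2A counts was not tested.

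Genes that work with kinesins were read from lists of partners. The division partners are CENPE, which is a kinesin of the kinetochore under another name, PRC1, RACGAP1, TPX2, ECT2, CIT, HMMR, KNSTRN, NUSAP1, PLK1 and the chromosomal passenger genes AURKB, INCENP, BIRC5 and CDCA8. All 14 fell with Nutlin-3a under each siRNA, with 21.2% and 19.7% of all genes called lower, with log2 medians of -4.10 under siControl and -5.06 under siRFX7 by the authors' deposited tables. With siRFX7 in Nutlin-3a, 11 of 14 were lower and none higher, with a median of -0.93 and 13.6% of all genes lower, and in DMSO 10 of 14 were lower and none higher, with a median of -0.27 and 15.5% of all genes lower, in the authors' deposited tables. PLK1, a mitotic kinase, had the largest fall under siControl at -4.94 and PRC1, with a mean of only 53.7 normalized counts, under siRFX7 at -6.17, by the authors' deposited tables. CDCA8 at -0.43 in DMSO and PRC1 at -2.33 in Nutlin-3a had the largest falls with siRFX7, per the authors' deposited tables. The difference between siRNAs passed for 7 of 14, all below 0, against 2.92% of all genes, and for 5 of 14 with the t distribution. The largest by size was that of PRC1 at -2.15, which did not pass (z test adjusted p 0.122).

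Some partners had differences unlike those of their own motors. These pairs were picked after their values were seen, and partner and motor were not tested against each other. RACGAP1, the other subunit of centralspindlin, had a difference of 0.21 (adjusted p 0.122, z test), against -0.61 for KIF23, which did not pass with the t distribution. CIT, the partner of KIF14, went the same way as its motor, with a difference of -0.92 (adjusted p 0.00216, z test) against -1.36. Neither CIT nor KIF14 passed with the t distribution. INCENP, which KIF20A carries, had 0.28 (adjusted p 0.112, z test). AURKB, BIRC5 and CDCA8 of the same complex had -1.30, -1.21 and -1.08 (all passed with either distribution). TTTGAA occurred in 8 of the 11 division partners with a RefSeq promoter.

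On the transport side, the adaptors and light chains rose in 6 of 10 genes and fell in 1 with Nutlin-3a in siControl, where 22.0% of all genes were called higher and 21.2% lower, with a log2 median of 0.25 by the authors' deposited table. TRAK1, which links kinesin to mitochondria, had the largest value, 1.36 in siControl and 1.44 in siRFX7, and KIF1BP was the member that fell, by 0.58 and 0.51, in the authors' deposited tables. With siRFX7, KIFAP3, the third subunit of the KIF3 motor, was at -0.58 without and at -0.50 with Nutlin-3a and called lower by the authors' deposited tables. KIF3A and KIF3B did not pass in either, while KIF3C was called higher in both, at 0.51 and 0.48, by the authors' deposited tables. In all, 5 of 10 were lower in DMSO and 4 in Nutlin-3a, against 15.5% and 13.6% of all genes, where BICDL1 and TRAK2 rose by 0.30 each, by the authors' deposited tables. With 6.20% of all genes called, the difference between siRNAs passed for BICDL1 alone, at 0.70 (adjusted p 9.90e-05, z test). It did not pass with the t distribution (adjusted p 0.0825).

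Cytoplasmic dynein and dynactin, the motor that walks the other way, had 5 of 16 genes higher and 4 lower with Nutlin-3a under siControl, against 7 and 4 under siRFX7, by the authors' deposited tables. Over all genes 22.0% were called higher and 21.2% lower under siControl, and 21.7% and 19.7% under siRFX7, so several of these counts lay near the background. Their log2 medians were 0.07 and 0.09 by the authors' deposited tables, against 0.02 and -0.02 over all genes. DCTN3, DYNC1LI1 and DYNLL2 were lower under both siRNAs, DYNLL1 also under siControl and DYNLT3 also under siRFX7, by the authors' deposited tables. The value largest in size under siControl, 1.01 for DYNC1I1, did not pass (DESeq2 adjusted p 0.421 in the authors' deposited table), at a mean of 4.18 normalized counts. With siRFX7, 4 genes rose and DYNLRB1 fell in DMSO, and 4 rose and none fell in Nutlin-3a, where 13.5% and 15.0% of all genes were called higher, by the authors' deposited tables. The difference between siRNAs passed for 0 of 16 by the z test, against 6.20% of all genes.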

How the data were processed

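Polyadenylated RNA from 12 HCT116 libraries, made from 500 ng of total RNA each, was sequenced and summarised by the authors in 4 DESeq2 tables. Per the submitters' processing notes the build was hg38 and the tools included Trimmomatic 0.39, cutadapt 2.10, SAMtools 1.10, featureCounts 1.6.5 and DESeq2 1.20.0; the aligner, the strand setting and the annotation are not given in the sources used here. Per the file headers, the mean normalized count is a signal, counts divided by size factors and averaged over libraries. The fold changes, with standard errors, are log2 values per the file headers, the deposited statistic is a score, their quotient, and the deposited p-values are those of the authors' test with Benjamini-Hochberg adjustment over the listed genes.

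The 4 sets of fold changes closed to within 1.29e-14 when the siRNA tables were read as siRFX7 over siControl, against a median error of 0.374 the other way. Group means were recovered from the mean normalized count and the fold changes, taking the groups as equal in size; the depth and values of single libraries are unknown here. The z test of the difference took its standard error from both contrasts, treats these as known and was adjusted over 23195 genes. It was checked on simulated data drawn with the same standard errors, which cannot show whether taking them as known is sound. A gene was called at an adjusted p below 0.05. Of the gene IDs, 99.9% were found in GENCODE 29, from which exons were merged for lengths and overlaps. All listed members could be named, with overlapping genes; of each partner list the member of largest change and those against the majority were named. RACGAP1, CIT, INCENP, AURKB, BIRC5, CDCA8 and KIFAP3 were named beside their motors after their values were seen. Members, roles and lists were chosen with earlier results of these data known. Python 3.11.15, pandas 2.3.3 and scipy 1.17.1 were used.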

Additional observations from a re-analysis of the deposited data

Results flagged for a closer look

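The Nutlin-3a effect on 9 kinesins differed between siRFX7 and siControl cells by the z test of the difference, adjusted over all 23195 genes. Below 0, that is with a deeper fall under siRFX7, were KIF18B at -1.68, KIF2C at -1.45, KIFC1 at -1.42, KIF14 at -1.36, KIF4B at -0.76 and KIF23 at -0.61. Above 0 were KIF20A at 1.10, KIF21B at 1.10 and KIF26A at 0.54. With a t distribution of 8 degrees of freedom KIF14, KIF23, KIF26A and KIF4B did not pass (adjusted p 0.0751, 0.0752, 0.0855 and 0.280). KIF4B shares most of its sequence with KIF4A, and KIF20A shares exon bases with CDC23 and BRD8.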

How the results depend on the processing

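Class counts were recomputed in 77 settings, of which 68 gave a count within 1.5 times the one reported and 9 did not. Asking also for a log2 change of at least 0.58 in size left 1 transport kinesin with Nutlin-3a under each siRNA, 1 mitotic and 0 transport kinesins with siRFX7 in DMSO, and 0 transport kinesins with siRFX7 in Nutlin-3a. Equal total counts left 6 mitotic kinesins with siRFX7 in DMSO. For the difference between siRNAs, a t distribution with 8 degrees of freedom left 4 mitotic kinesins and, in a run chosen after the data were seen, KIF21B but not KIF26A, 5 of 7 division partners and none of the adaptors; a mean of at least 100 gave 1 transport kinesin (KIF5B), and counting KIF21A and KIF21B as transport gave 1 (KIF21B). An adjusted p of 0.01, protein-coding genes only and centring on the median moved no class count by more than 1.5 times, nor did leaving out KIF4B and KIF20A, chosen after the data were seen. Of 382 member values under equal totals or median centring, 0 changed sign while called, 9 lost their call and 3 gained one; the scalings shifted values by at most 0.057 on the log2 scale. No paired analysis was possible because the tables hold statistics of groups and not of libraries, and leaving out replicates was not run for the same reason. Members with few counts, such as KIF19, KIF1A and KIF7, are limited by depth.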
